A study of Mus musculus with 24 samples.

Results

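The genes described here are 37 genes of glycolysis and the hypoxia response: glucose and monocarboxylate transporters, the enzymes from hexokinase to lactate dehydrogenase, the bifunctional PFKFB enzymes, Hif1a with 2 of its prolyl hydroxylases, and 7 genes known as hypoxia targets. They were chosen by gene symbol among the 54532 genes of the deposited count matrix and took up 38 rows, because the symbol Aldoa stands on 2 rows. All 37 genes, and all 38 rows, passed the filter on low counts. RNA was sequenced from cultures of mouse bone marrow macrophages, the precursors from which osteoclasts, the bone-resorbing cells, are made, to ask what raised Runx1 does to osteoclast formation. Cells were expanded on petri dishes, seeded at 15000 per well in 48-well plates, and kept for 3 or 5 days with M-CSF (macrophage colony-stimulating factor) alone or with M-CSF and RANKL, the ligand that drives macrophages to become osteoclasts. Libraries were made from 250 ng of total RNA with the TruSeq RNA kit. In the osteoclast medium RANKL was at 50 ng/mL, and the M-CSF beside it at 30 ng/mL.

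The control groups were Rosa26-Runx1tg/+ cells, labelled wild type control, which carry 1 copy of a Runx1 transgene at Rosa26 and no Cre. The other genotype was LysM-Cre;Rosa26-Runx1tg/+, labelled Runx1 over expression and called Runx1-labelled from here on, in which Cre is driven by the lysozyme 2 promoter of myeloid cells. Both genotypes thus carry the transgene. Each of the 8 combinations of genotype, medium and day had 3 libraries, numbered 1 to 3, and the values of a group are given below in that order. What a number stands for, such as an animal or a culture day, is not in the labels, so the p-values measure the spread between these libraries, which may be technical. In Runx1-labelled cells that spread also spans libraries with unlike sex-linked transcripts, number 3 differing from 1 and 2 as given below. No age, sex or M-CSF dose without RANKL is stated in the labels.

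Glycolysis splits glucose into pyruvate in the cytosol. Glucose enters through transporters of the Slc2a family, hexokinases trap it, phosphofructokinase commits it, and lactate dehydrogenase turns pyruvate into lactate, which monocarboxylate transporters carry out. Most steps have several isoenzymes encoded by separate genes. The transcription factor Hif1a accumulates when prolyl hydroxylases of the Egln family lack oxygen, and many glycolytic genes are among its known targets. Osteoclasts are rich in mitochondria and also use glycolysis, which has been tied to bone resorption.

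Library totals ran from 18975750 to 36523995 counts, and all but the deepest library held at most 24268936. The deepest was number 3 of the Runx1-labelled day 5 RANKL group, which also had the highest CPM (counts scaled to library size with TMM factors) of its group for 28 of 37 genes. A read was worth 0.0286 to 0.0542 CPM. Runx1 itself did not separate the genotypes in 3 of the 4 conditions: on day 3 with M-CSF alone it stood at 67.8 to 93.2 CPM in controls and at 79.2 to 99.5 CPM in Runx1-labelled libraries, and on day 5 with RANKL at 66.7 to 71.5 CPM and 63.4 to 92.0 CPM. With RANKL on day 3 the ranges were 50.6 to 52.4 CPM and 52.7 to 67.4 CPM. The 4 Runx1-labelled libraries of number 3 held 2576 counts of Y-linked genes and 2 to 12 of Xist, and the other 20 held 14963 to 28379 of Xist each. Summed osteoclast markers (10 genes such as Acp5 and Ctsk) were at 110.5 to 174.8 CPM with M-CSF alone, Calcr being at 0 there on day 5, and at 36220 to 59920 CPM with RANKL, with none at 0. The 8 macrophage markers summed to 7181 to 9002 CPM without and 3038 to 4670 CPM with RANKL.

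With RANKL some of the 37 genes were higher and others lower, often isoenzymes of the same step. Ldhb, Pfkfb2 and Pdk1 were higher in all 4 comparisons, while Hk3, Slc2a3, Pfkfb4 and Pfkfb3 were lower. A call means an adjusted p under 0.05 in edgeR's quasi-likelihood test with Benjamini-Hochberg adjustment over all 15035 genes tested, the test behind every adjusted p below. On day 3 in control cells 15 of 37 genes were higher with RANKL and 13 lower, where 29.5% and 29.7% of all genes tested were higher and lower. The Runx1-labelled cells of day 3 had 14 higher and 14 lower, beside 29.1% and 30.1% of all genes. On day 5 the counts were 12 higher and 8 lower in control cells, beside 26.4% and 23.1% of all genes, and 13 higher and 7 lower in Runx1-labelled cells, beside 27.5% and 24.9%. The median log2 difference of the 37 genes was 0.11 and 0.13 on day 3 and 0.15 and 0.11 on day 5, beside −0.03, −0.02, 0.03 and 0.03 over all genes tested. On day 3 the counts come to 40.5% higher and 35.1% lower in controls and to 37.8% each way in Runx1-labelled cells, larger shares than over all genes. On day 5 the shares called higher, 32.4% and 35.1%, were again above those of all genes, and the shares called lower, 21.6% and 18.9%, were below them. These shares were not tested against those of all genes.

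The 9 genes higher in all 4 comparisons were Hk1, Pfkfb2, Aldoa, Tpi1, Pgam1, Ldhb, Slc16a1, Bnip3 and Pdk1. Another 5 were lower in all 4, namely Slc2a3, Hk3, Pfkfb3, Pfkfb4 and Pkm. Gpi1, Aldoc, Gapdh, Pgk1, Eno1 and Ndrg1 passed in none of the 4, Slc16a3 was lower on day 3 and higher on day 5, and the other 16 passed in some comparisons. When each library was left out in turn, 18 of 28, 19 of 28, 17 of 20 and 16 of 20 calls held in every fit. RNA came from whole cultures, so fewer cells of a type and less RNA per cell cannot be told apart. Beside the macrophage and osteoclast markers, summed erythroid and megakaryocyte markers, nearly all of it Pf4, were at 192.0 to 1530 CPM with M-CSF alone and 13.82 to 88.97 CPM with RANKL, and Hba-a2 was at 0 in every library. Neutrophil markers summed to 71.0 to 158.7 CPM without and 48.06 to 105.5 CPM with RANKL, and stromal and osteoblast markers to 7.618 to 139.9 and 14.81 to 300.6 CPM. Endothelial markers reached at most 24.99 CPM, lymphoid markers, with Cd3e at 0 in every library, 0.7458 CPM, and mast cell markers 0.4586 CPM. Counts of mitochondrial genes were 1.518 to 2.416% of each library without and 3.148 to 4.567% with RANKL. The part of these cell types and of the mitochondrial share in the results below was not tested.

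**Figure D1:**
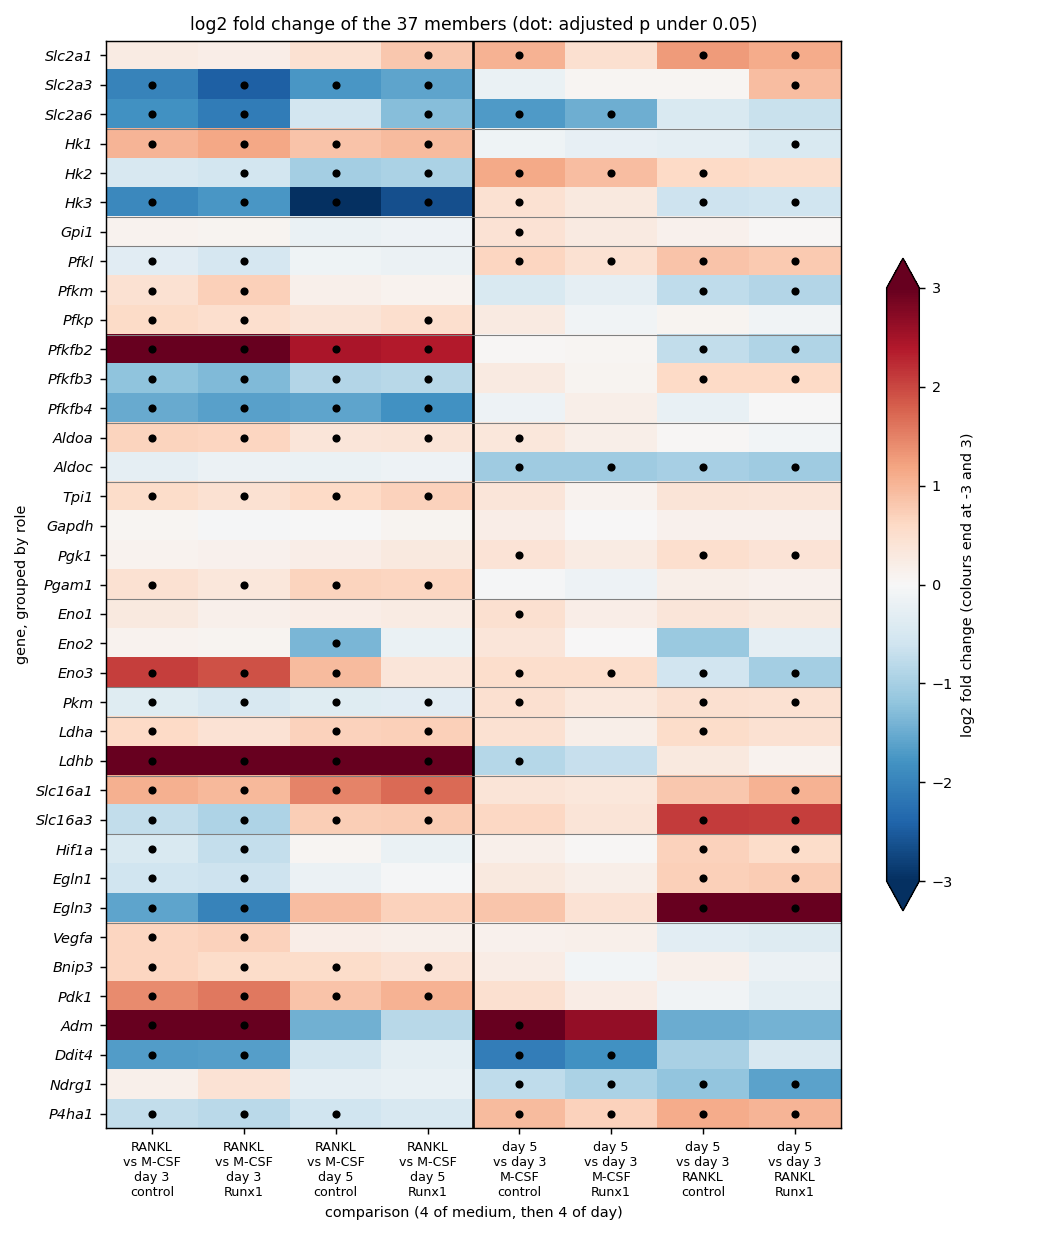
Heat map of the fitted log2 fold change of each of the 37 genes (rows, by role) in 8 comparisons (columns): 4 of RANKL against M-CSF alone, then 4 of day 5 against day 3; a dot marks an adjusted p under 0.05 and colours end at −3 and 3. Ldhb and Pfkfb2 are red and Hk3, Slc2a3 and Pfkfb4 blue in all 4 RANKL columns, each with a dot, and Slc16a3 turns from blue on day 3 to red on day 5.

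The promoters of 4 genes are shown, 1 each from transporters, enzymes, HIF regulators and hypoxia targets, all with transcripts that moved with RANKL. They hold the most hypoxia cores of their class among the genes with all values printed. Egln3 and Adm were the only such genes of their classes, so no choice was made there. Other genes of these classes held more cores, among them Hif1a with 3 and Bnip3 with 5. RefSeq entries (GRCm38.p6) matched 35 of the 37 genes by symbol; Slc2a3 and Ndrg1 had none. The letters searched were ACGTG and GCGTG, the core of the known hypoxia response element, on both strands in the 250 bases before the start, where CACGTG counts once on each strand. Capitals mark every match, also where the core is on the other strand, and each sequence runs 5′ to 3′ on the strand of its gene. Slc16a1 is at chr3:104638414-104638663 on the plus strand, Pfkfb2 at chr1:130715822-130716071 on the minus strand, Egln3 at chr12:54203875-54204124 on the minus strand and Adm at chr7:110627407-110627656 on the plus strand.
Slc16a1: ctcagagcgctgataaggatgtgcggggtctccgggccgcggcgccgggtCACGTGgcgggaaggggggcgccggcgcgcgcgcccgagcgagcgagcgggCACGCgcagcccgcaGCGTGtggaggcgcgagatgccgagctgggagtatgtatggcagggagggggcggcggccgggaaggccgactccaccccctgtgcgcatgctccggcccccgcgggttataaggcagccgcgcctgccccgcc
Pfkfb2: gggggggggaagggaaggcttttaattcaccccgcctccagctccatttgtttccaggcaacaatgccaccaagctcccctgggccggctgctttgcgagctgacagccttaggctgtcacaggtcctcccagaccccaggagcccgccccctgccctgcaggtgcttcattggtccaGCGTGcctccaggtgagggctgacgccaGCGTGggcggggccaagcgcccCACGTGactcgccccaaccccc
Egln3: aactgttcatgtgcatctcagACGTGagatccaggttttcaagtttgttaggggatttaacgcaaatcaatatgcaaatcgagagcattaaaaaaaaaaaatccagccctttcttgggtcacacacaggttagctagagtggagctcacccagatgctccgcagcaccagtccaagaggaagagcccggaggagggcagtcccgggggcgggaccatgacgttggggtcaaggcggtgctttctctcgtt
Adm: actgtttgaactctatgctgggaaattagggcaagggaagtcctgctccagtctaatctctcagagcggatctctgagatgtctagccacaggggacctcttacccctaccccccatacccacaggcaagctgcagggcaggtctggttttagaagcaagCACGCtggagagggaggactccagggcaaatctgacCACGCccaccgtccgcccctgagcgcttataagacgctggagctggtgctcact
There were 4 cores in the Slc16a1 window, 4 in the Pfkfb2 window shown, 1 in Egln3 and 2 in Adm. RefSeq gives Pfkfb2 another 2 windows with 1 core each. Several genes have more than 1 start, and the 35 genes have 51 windows, of which 42 (82.4%) held a core, beside 38.6% of all 32851 windows. Counted per gene, 32 of the 35 (91.4%) had a core in at least 1 of their windows, and Gpi1, Eno2 and Tpi1 had none. Of all 27025 genes with a promoter 41.5% had one in any window, and of the 10538 matched genes that were also tested 59.9%. The median GC content was 60.8% for the 35 genes, 59.6% for the tested genes and 52.4% for all. The Runx core, searched as TGTGGT and TGCGGT on both strands, was in at least 1 window of 6 of 35 genes (17.1%), beside 20.9% of all genes and 20.7% of those tested. A match describes letters in this window and is neither a bound site nor a cause.

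Of the 3 glucose transporters, Slc2a3, a high-affinity carrier, and Slc2a6, a carrier of lysosomal membranes, were lower with RANKL, while Slc2a1, the widely expressed basal carrier, took a larger share of the family's reads. On day 3, Slc2a3 stood at 15.8, 11.1 and 13.3 CPM in the control libraries with M-CSF alone and at 4.01, 2.37 and 3.55 CPM in those with RANKL. Slc2a3 in the Runx1-labelled libraries of day 3 stood at 5.27, 9.59 and 13.01 CPM without RANKL and at 1.46, 2.36 and 1.31 CPM with it. No RANKL library of day 3 reached the lowest M-CSF library of its genotype. On day 5, Slc2a3 measured 14.3, 10.9 and 9.84 CPM in control libraries with M-CSF alone and 3.03, 3.06 and 4.36 CPM in those with RANKL. Slc2a3 in the Runx1-labelled libraries of day 5 measured 9.34, 10.2 and 9.64 CPM without RANKL and 2.71, 3.63 and 3.37 CPM with it. The groups were again apart on day 5. Fitted log2 differences of Slc2a3 (chr6:122727809-122801640, minus strand) were −2.01 ± 0.28 and −2.45 ± 0.30 on day 3 and −1.74 ± 0.28 and −1.59 ± 0.28 on day 5 in control and Runx1-labelled cells (± SE, adjusted p 2.96e-06, 4.25e-07, 2.36e-05 and 6.59e-05). Slc2a6 fell from 35.6 ± 4.02 to 10.1 ± 3.66 CPM (SD, n = 3) in day 3 controls, with log2 differences of −1.81, −2.09, −0.56 and −1.28, of which the day 5 control value did not pass. Slc2a1 was at 42.5 ± 17.9 CPM with M-CSF and 50.5 ± 16.5 CPM with RANKL in day 3 controls, a log2 difference of 0.24 that did not pass. Its one call was on day 5 in Runx1-labelled cells (log2 0.82 ± 0.31, adjusted p 0.0346), and it was lost without any 1 library other than M-CSF library 3 (0.58 to 0.87). Per kilobase of exon, Slc2a1 made up 46.99% ± 9.29 of the reads of these 3 genes in day 3 controls with M-CSF and 78.6% ± 11.1 with RANKL. On day 5 the shares were 83.2% ± 3.57 and 92.6% ± 1.49. Over both genotypes the share was 33.9 points higher with RANKL on day 3 and 15.3 points on day 5 (exact permutation test, 2-sided, adjusted p 0.00667 each). That test swapped the medium labels within genotype, allows 400 arrangements and a smallest raw p of 0.005 at each day, and was adjusted over 16 tests of 8 families. The families come from genes chosen with earlier results of these data known, which limits what these p-values can show.

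Hexokinases, which phosphorylate glucose, exchanged places: Hk1, the mitochondria-bound form of many tissues, was higher with RANKL, and Hk3, a form of myeloid cells, was lower. On day 3, Hk3 stood at 328, 424 and 492 CPM in the control libraries with M-CSF alone and at 105, 111 and 111 CPM in those with RANKL. Hk3 in the Runx1-labelled libraries of day 3 stood at 350.1, 336 and 478 CPM without RANKL and at 126, 112 and 109.5 CPM with it. The highest RANKL library was below the lowest M-CSF library in both genotypes. On day 5, Hk3 measured 542, 557 and 603 CPM in control libraries with M-CSF alone and 69.8, 71.6 and 73.05 CPM in those with RANKL. Hk3 in the Runx1-labelled libraries of day 5 measured 435, 452 and 529 CPM without RANKL and 76.6, 73.3 and 77.8 CPM with it. On day 5 the gap was wider. Hk3 (chr13:55005985-55021385, minus strand) had log2 differences of −1.93 ± 0.13 and −1.75 ± 0.13 on day 3 and −2.99 ± 0.14 and −2.64 ± 0.14 on day 5 (adjusted p 9.31e-11, 3.62e-10, 6.35e-13 and 2.36e-12). Hk1 went from 146 ± 12.5 to 294 ± 27.2 CPM in day 3 controls and from 134 ± 7.37 to 241 ± 7.83 CPM on day 5, with log2 differences of 1.01, 1.16, 0.85 and 0.94 (adjusted p 2.59e-07, 3.69e-08, 3.98e-06 and 9.88e-07). Hk2, the inducible form, was lower in 3 of the 4 comparisons, with log2 differences of −0.48, −0.55, −1.02 and −0.94, the day 3 control value not passing. The Hk2 call in day 3 Runx1-labelled cells was lost without RANKL library 1 (−0.46), RANKL library 2 (−0.39) or M-CSF library 3 (−0.41), and the value grew to −0.85 without RANKL library 3. As a share of the 3 genes per kilobase, Hk1 went from 12.5% ± 1.27 to 49.1% ± 1.46 in day 3 controls and Hk3 from 81.3% ± 1.5 to 42.3% ± 2.25. Day 5 controls showed Hk1 at 8.35% ± 0.738 and 49.8% ± 0.143. The Hk2 share, chosen for the test, was 1.86 points higher with RANKL on day 3 (exact permutation test, adjusted p 0.11) and 5.59 points higher on day 5 (adjusted p 0.00667). Without length scaling the day 5 difference was 0.688 points (adjusted p 0.277).

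Gpi1, the single isomerase between hexokinase and phosphofructokinase, passed in none of the 4 RANKL comparisons. On day 3, Gpi1 stood at 484, 560.3 and 601 CPM in the control libraries with M-CSF alone and at 579, 599 and 588 CPM in those with RANKL. Gpi1 in the Runx1-labelled libraries of day 3 stood at 593, 483 and 582 CPM without RANKL and at 582, 572 and 593 CPM with it. The ranges overlapped in both genotypes. On day 5, Gpi1 measured 757, 702 and 774 CPM in control libraries with M-CSF alone and 644, 624 and 671 CPM in those with RANKL. Gpi1 in the Runx1-labelled libraries of day 5 measured 622, 688 and 674 CPM without RANKL and 526, 580.5 and 691 CPM with it. The day 5 control groups did not overlap, yet the log2 differences of Gpi1 (chr7:34201330-34230336, minus strand) were only 0.10, 0.07, −0.20 and −0.14, with 95% intervals from −0.10 to 0.31 on day 3 and −0.41 to 0.00 on day 5 in controls (adjusted p 0.392, 0.542, 0.0941 and 0.24).

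Phosphofructokinase, the committing enzyme, is built from liver (Pfkl), muscle (Pfkm) and platelet (Pfkp) subunits. Pfkm and Pfkp were higher with RANKL on day 3 and Pfkl lower. On day 3, Pfkm stood at 32.4, 24.8 and 22.01 CPM in the control libraries with M-CSF alone and at 42.4, 37.3 and 29.4 CPM in those with RANKL. Pfkm in the Runx1-labelled libraries of day 3 stood at 16.8, 29.8 and 22.1 CPM without RANKL and at 39.2, 42.1 and 32.4 CPM with it. Groups overlapped in controls and were apart in Runx1-labelled cells. On day 5, Pfkm measured 17.1, 18.96 and 21.4 CPM in control libraries with M-CSF alone and 21.7, 19.6 and 22.6 CPM in those with RANKL. Pfkm in the Runx1-labelled libraries of day 5 measured 16.9, 19.1 and 21.1 CPM without RANKL and 21.2, 17.1 and 23.1 CPM with it. Day 5 values overlapped between the media in both genotypes. Pfkm (chr15:98092589-98132451, plus strand) had log2 differences of 0.47 ± 0.19 and 0.72 ± 0.19 on day 3 and 0.15 ± 0.19 and 0.11 ± 0.19 on day 5 (adjusted p 0.0359, 0.00209, 0.536 and 0.651), and the day 3 control call was lost without any 1 library other than M-CSF library 1 and RANKL library 3 (0.33 to 0.43). Senp1 on the opposite strand overlaps Pfkm and had 153% of its counts, and Pitrm1 overlaps Pfkp with 75.8%; no label or header states whether counting used strand, so these 2 subunits are uncertain. Pfkp was at 78.2 ± 21.3 and 116 ± 15.6 CPM in day 3 controls, with log2 differences of 0.57, 0.51, 0.39 and 0.51, all but the day 5 control value passing. Its calls were lost without M-CSF library 1 (0.38) or RANKL library 3 (0.48) in day 3 controls, without any 1 library other than M-CSF library 3 and RANKL library 2 (0.33 to 0.49, 0.33 without M-CSF library 2) in day 3 Runx1-labelled cells, and without any 1 library other than RANKL library 1 and RANKL library 2 (0.38 to 0.51) on day 5. Pfkl had log2 differences of −0.35, −0.50, −0.14 and −0.18, the 2 of day 3 passing. The Pfkl calls were lost without any 1 library other than M-CSF library 1 and RANKL library 3 (−0.32 to −0.23, −0.23 without M-CSF library 3) in controls and without M-CSF library 3 (−0.34) in Runx1-labelled cells. Per kilobase, the Pfkp share of the 3 subunits was 6.77 points higher with RANKL on day 3 (exact permutation test, adjusted p 0.0343) and 6.84 points on day 5 (adjusted p 0.00667). Pfkl held 46.3% ± 5.41 in day 3 controls with M-CSF and 32.5% ± 3.73 with RANKL.

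The PFKFB enzymes make and break fructose 2,6-bisphosphate, the activator of phosphofructokinase, and the prevailing transcript changed from Pfkfb4 to Pfkfb2. On day 3, Pfkfb2 stood at 12.96, 14.03 and 11.4 CPM in the control libraries with M-CSF alone and at 128, 131 and 102 CPM in those with RANKL. Pfkfb2 in the Runx1-labelled libraries of day 3 stood at 12.1, 13.3 and 13.5 CPM without RANKL and at 146, 136 and 114 CPM with it. Every RANKL library was far above every M-CSF library. On day 5, Pfkfb2 measured 13.1, 14.5 and 11.5 CPM in control libraries with M-CSF alone and 70.98, 73.9 and 69.97 CPM in those with RANKL. Pfkfb2 in the Runx1-labelled libraries of day 5 measured 13.4, 14.1 and 13.1 CPM without RANKL and 76.9, 59.6 and 76.4 CPM with it. The rise was 9.39-fold in day 3 controls and 5.498-fold in day 5 controls. Pfkfb2 (chr1:130689182-130729253, minus strand), whose window with 4 cores is the 1 of 3 printed above, had log2 differences of 3.23 ± 0.13 and 3.34 ± 0.13 on day 3 and 2.46 ± 0.13 and 2.39 ± 0.13 on day 5 (adjusted p 4.04e-14, 2.17e-14, 2.20e-12 and 3.21e-12). The opposite-strand gene Yod1 overlaps it with 30.4% of its counts. Pfkfb3, an inducible form with high kinase activity, fell from 34.1 ± 4.82 to 14.8 ± 5.07 CPM in day 3 controls, and its log2 differences were −1.20, −1.33, −0.88 and −0.82, all passing. Pfkfb4 fell from 69.2 ± 11 to 24.3 ± 1.25 CPM there, with log2 differences of −1.51, −1.63, −1.58 and −1.82, again all passing. Of the 3 genes per kilobase, Pfkfb2 held 8.69% ± 1.21 and Pfkfb4 69.2% ± 1.46 in day 3 controls with M-CSF. RANKL brought these to 70.3% ± 2.304 and 21.4% ± 1.74. The Pfkfb3 share was −14.9 points different on day 3 and −7.901 points on day 5 (RANKL minus M-CSF, exact permutation test, adjusted p 0.00667 each).

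Aldoa, the main aldolase, which splits fructose 1,6-bisphosphate, was higher with RANKL in all 4 comparisons. On day 3, Aldoa stood at 1374, 1582 and 1571 CPM in the control libraries with M-CSF alone and at 2536, 2416 and 2215 CPM in those with RANKL. Aldoa in the Runx1-labelled libraries of day 3 stood at 1539, 1445 and 1693 CPM without RANKL and at 2532, 2460 and 2266 CPM with it. Groups did not overlap in either genotype. On day 5, Aldoa measured 2010, 1866 and 1895 CPM in control libraries with M-CSF alone and 2437, 2383 and 2561 CPM in those with RANKL. Aldoa in the Runx1-labelled libraries of day 5 measured 1706, 1751 and 1804 CPM without RANKL and 2114, 2086 and 2654 CPM with it. They were apart on day 5 also, by less. Log2 differences of Aldoa (chr7:126795234-126800751, minus strand) were 0.66 ± 0.10 and 0.63 ± 0.10 on day 3 and 0.36 ± 0.10 and 0.38 ± 0.10 on day 5 (adjusted p 5.02e-06, 8.62e-06, 0.00412 and 0.00221), and the last was 0.24 without RANKL library 3, still passing. The other row with this symbol, ENSMUSG00000114515, had 243 counts in all 24 libraries and is left out of the counts of 37 genes. Aldoc, the brain form, was at 57.2 ± 9.71 and 47.7 ± 11.7 CPM in day 3 controls and did not pass with RANKL (log2 −0.26, −0.17, −0.19 and −0.16). The Aldoa share of both aldolases per kilobase was 1.502 points higher with RANKL on day 3 (exact permutation test, adjusted p 0.0123) and 0.413 points on day 5 (adjusted p 0.00667).

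Of the 4 enzymes that follow, Tpi1, which interconverts the triose phosphates, and Pgam1, the phosphoglycerate mutase, were higher with RANKL throughout, and Gapdh and Pgk1, the dehydrogenase and the kinase between them, passed in no RANKL comparison. On day 3, Tpi1 stood at 245, 389 and 395 CPM in the control libraries with M-CSF alone and at 461, 525 and 517 CPM in those with RANKL. Tpi1 in the Runx1-labelled libraries of day 3 stood at 319.8, 273 and 441 CPM without RANKL and at 470.3, 439 and 508 CPM with it. Control groups were apart on day 3, with M-CSF library 1 the lowest by far, and the Runx1-labelled groups overlapped narrowly. On day 5, Tpi1 measured 462, 417 and 435 CPM in control libraries with M-CSF alone and 686, 639.5 and 654 CPM in those with RANKL. Tpi1 in the Runx1-labelled libraries of day 5 measured 338, 372 and 409 CPM without RANKL and 527, 603 and 686 CPM with it. All RANKL libraries of day 5 were above all M-CSF libraries. Tpi1 (chr6:124810586-124814296, minus strand) had log2 differences of 0.55 ± 0.16 and 0.45 ± 0.16 on day 3 and 0.59 ± 0.16 and 0.70 ± 0.16 on day 5 (adjusted p 0.0062, 0.0197, 0.00439 and 0.00107). The day 3 value was 0.35 in controls without M-CSF library 1, still passing, and the Runx1-labelled call was lost without M-CSF library 1 (0.40), M-CSF library 2 (0.31) or RANKL library 3 (0.39). Pgam1 had log2 differences of 0.46, 0.35, 0.66 and 0.64, and stood at 252 ± 50.98 and 346 ± 12.8 CPM in day 3 controls. Without M-CSF library 1 its day 3 control value was 0.29, still passing, and the Runx1-labelled call was lost without M-CSF library 2 (0.23). Gapdh, often used as a reference gene, was at 2406 ± 231 and 2523 ± 91.2 CPM in day 3 controls, with log2 differences of 0.07, −0.03, 0.00 and 0.09 and a 95% interval of −0.11 to 0.25 for the first. Pgk1 had log2 differences of 0.10, 0.13, 0.19 and 0.29.

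Enolases make phosphoenolpyruvate. Eno3, the muscle form, was higher with RANKL on day 3 and in day 5 controls, at low levels. On day 3, Eno3 stood at 3.36, 2.94 and 2.902 CPM in the control libraries with M-CSF alone and at 12.02, 13.6 and 12.9 CPM in those with RANKL. Eno3 in the Runx1-labelled libraries of day 3 stood at 3.22, 3.34 and 3.15 CPM without RANKL and at 12.3, 10.9 and 13.5 CPM with it. RANKL libraries of day 3 were all above 10 CPM and M-CSF libraries below 4 CPM. On day 5, Eno3 measured 4.14, 3.79 and 5.31 CPM in control libraries with M-CSF alone and 8.29, 9.03 and 8.39 CPM in those with RANKL. Eno3 in the Runx1-labelled libraries of day 5 measured 4.45, 4.43 and 5.15 CPM without RANKL and 5.73, 4.88 and 7.46 CPM with it. Groups were apart in day 5 controls and overlapped in Runx1-labelled cells. Eno3 (chr11:70657202-70662513, plus strand) had log2 differences of 2.06 ± 0.16 and 1.91 ± 0.16 on day 3 and 0.96 ± 0.16 and 0.37 ± 0.16 on day 5 (adjusted p 6.27e-10, 1.57e-09, 3.23e-05 and 0.0514). Eno1, the ubiquitous form, was at 1181 ± 277 and 1449 ± 106 CPM in day 3 controls and did not pass (log2 0.30, 0.16, 0.19 and 0.26). Eno2, the neuronal form, was at 0.339 to 2.11 CPM over all libraries. It was lower in day 5 controls (log2 −1.37 ± 0.48, adjusted p 0.0216), a call lost without RANKL library 2 (−1.26), M-CSF library 3 (−1.26) or RANKL library 3 (−1.37). The Eno1 share of the 3 genes per kilobase differed by −1.79 points on day 3 (exact permutation test, adjusted p 0.00667) and −0.278 points on day 5 (adjusted p 0.0533).

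Pkm, the pyruvate kinase of most tissues and the last enzyme before pyruvate, was lower with RANKL in all 4 comparisons. On day 3, Pkm stood at 2299, 3075 and 3195 CPM in the control libraries with M-CSF alone and at 2128, 2214 and 2309 CPM in those with RANKL. Pkm in the Runx1-labelled libraries of day 3 stood at 2810, 2671 and 3358 CPM without RANKL and at 2069, 2088 and 2222 CPM with it. In day 3 controls M-CSF library 1 was below the highest RANKL library, and the Runx1-labelled groups were apart. On day 5, Pkm measured 3998, 3868 and 4047 CPM in control libraries with M-CSF alone and 3185, 2983 and 3131 CPM in those with RANKL. Pkm in the Runx1-labelled libraries of day 5 measured 3482, 3796 and 3808 CPM without RANKL and 2599, 2997 and 3140 CPM with it. On day 5 every RANKL library was below every M-CSF library. Pkm (chr9:59656368-59679375, plus strand) had log2 differences of −0.37 ± 0.11 and −0.47 ± 0.11 on day 3 and −0.36 ± 0.11 and −0.34 ± 0.11 on day 5 (adjusted p 0.00726, 9.85e-04, 0.0103 and 0.0126). The day 3 control call was lost without M-CSF library 3 (−0.28) and the day 5 Runx1-labelled call without RANKL library 1 (−0.27).

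Lactate dehydrogenase is a tetramer of A and B subunits, of which the B subunit is known to favour use of lactate. Ldhb had the largest fitted RANKL difference of the 37 genes in all 4 comparisons, with Adm (3.96 against 3.97 on the log2 scale) next in day 3 controls. On day 3, Ldhb stood at 13.2, 9.88 and 7.94 CPM in the control libraries with M-CSF alone and at 182, 176 and 128 CPM in those with RANKL. Ldhb in the Runx1-labelled libraries of day 3 stood at 10.1, 13.1 and 7.56 CPM without RANKL and at 199, 201 and 119 CPM with it. RANKL libraries exceeded 100 CPM and M-CSF libraries stayed under 14 CPM. On day 5, Ldhb measured 3.19, 6.45 and 7.58 CPM in control libraries with M-CSF alone and 191, 192 and 211 CPM in those with RANKL. Ldhb in the Runx1-labelled libraries of day 5 measured 7.36, 6.01 and 5.81 CPM without RANKL and 196, 137 and 223 CPM with it. Day 5 showed the same separation. Ldhb (chr6:142490249-142507957, minus strand) was 15.7-fold and 16.8-fold higher on day 3 and 34.6-fold and 29.01-fold higher on day 5. Its log2 differences were 3.97 ± 0.29 and 4.07 ± 0.29 on day 3 and 5.11 ± 0.31 and 4.86 ± 0.31 on day 5 (adjusted p 3.50e-10, 2.40e-10, 4.13e-11 and 6.72e-11). Ldha, the A subunit, went from 629 ± 206 to 953 ± 87.3 CPM in day 3 controls, with log2 differences of 0.60, 0.42, 0.69 and 0.71, of which the day 3 Runx1-labelled value did not pass. The day 3 control call of Ldha was lost without M-CSF library 1 (0.35). Per kilobase, Ldhb was 3.85% ± 2.41 of both subunits in day 3 controls with M-CSF and 26.5% ± 5.15 with RANKL, and 1.39% ± 0.592 and 22.9% ± 0.703 on day 5. The Ldha share was −23.9 points different on day 3 and −21.8 points on day 5 (exact permutation test, adjusted p 0.00667 each).

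Both monocarboxylate transporters changed, each in its own way: Slc16a1 (MCT1, which carries lactate and pyruvate) was higher with RANKL on both days, and Slc16a3 (MCT4, a lactate exporter) was lower on day 3 and higher on day 5. On day 3, Slc16a1 stood at 6.01, 13.1 and 18.4 CPM in the control libraries with M-CSF alone and at 20.5, 24.9 and 32.97 CPM in those with RANKL. Slc16a1 in the Runx1-labelled libraries of day 3 stood at 11.6, 7.21 and 19.9 CPM without RANKL and at 25.8, 19.5 and 30.8 CPM with it. Controls did not overlap, and in Runx1-labelled cells M-CSF library 3 was slightly above RANKL library 2. On day 5, Slc16a1 measured 21.2, 14.2 and 13.7 CPM in control libraries with M-CSF alone and 43.7, 47.8 and 46.3 CPM in those with RANKL. Slc16a1 in the Runx1-labelled libraries of day 5 measured 13.02, 15.5 and 19.99 CPM without RANKL and 50.8, 58.4 and 47.5 CPM with it. The groups were well apart on day 5. Slc16a1 (chr3:104638668-104658462, plus strand) had log2 differences of 1.06 ± 0.33 and 0.98 ± 0.33 on day 3 and 1.49 ± 0.33 and 1.69 ± 0.33 on day 5 (adjusted p 0.0101, 0.016, 9.03e-04 and 2.55e-04). Its day 3 calls were lost without M-CSF library 1 (0.72) or RANKL library 3 (0.86) in controls and without M-CSF library 1 (0.91), M-CSF library 2 (0.69) or RANKL library 3 (0.81) in Runx1-labelled cells. On day 3, Slc16a3 stood at 41.03, 68.9 and 78.5 CPM in the control libraries with M-CSF alone and at 36.5, 36.9 and 39.6 CPM in those with RANKL. Slc16a3 in the Runx1-labelled libraries of day 3 stood at 42.8, 44.02 and 96.6 CPM without RANKL and at 28.9, 36.6 and 31.5 CPM with it. M-CSF libraries of day 3 were spread widely, library 3 being the highest in both genotypes, and the media did not overlap in either. On day 5, Slc16a3 measured 115, 90.9 and 83.7 CPM in control libraries with M-CSF alone and 177, 159.8 and 150.0 CPM in those with RANKL. Slc16a3 in the Runx1-labelled libraries of day 5 measured 68.96, 85.6 and 85.8 CPM without RANKL and 116, 144 and 145 CPM with it. RANKL libraries of day 5 were above all M-CSF libraries. Slc16a3 (chr11:120948480-120960868, plus strand) had log2 differences of −0.74 ± 0.25 and −0.92 ± 0.25 on day 3 and 0.75 ± 0.25 and 0.75 ± 0.25 on day 5 (adjusted p 0.0156, 0.00366, 0.016 and 0.0146). The day 3 calls were lost without M-CSF library 2 (−0.67) or M-CSF library 3 (−0.54) in controls and without M-CSF library 3 (−0.43) in Runx1-labelled cells. On day 5 they were lost without RANKL library 1 (0.68), M-CSF library 2 (0.67) or M-CSF library 3 (0.62) in controls and without M-CSF library 1 (0.63) or RANKL library 3 (0.68) in Runx1-labelled cells. Slc16a1 held 18.5% ± 3.51 of both transporters per kilobase in day 3 controls with M-CSF and 45.04% ± 4.86 with RANKL. The Slc16a3 share differed by −27.3 points on day 3 and −10.6 points on day 5 (exact permutation test, adjusted p 0.00667 each).

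**Figure D2:**
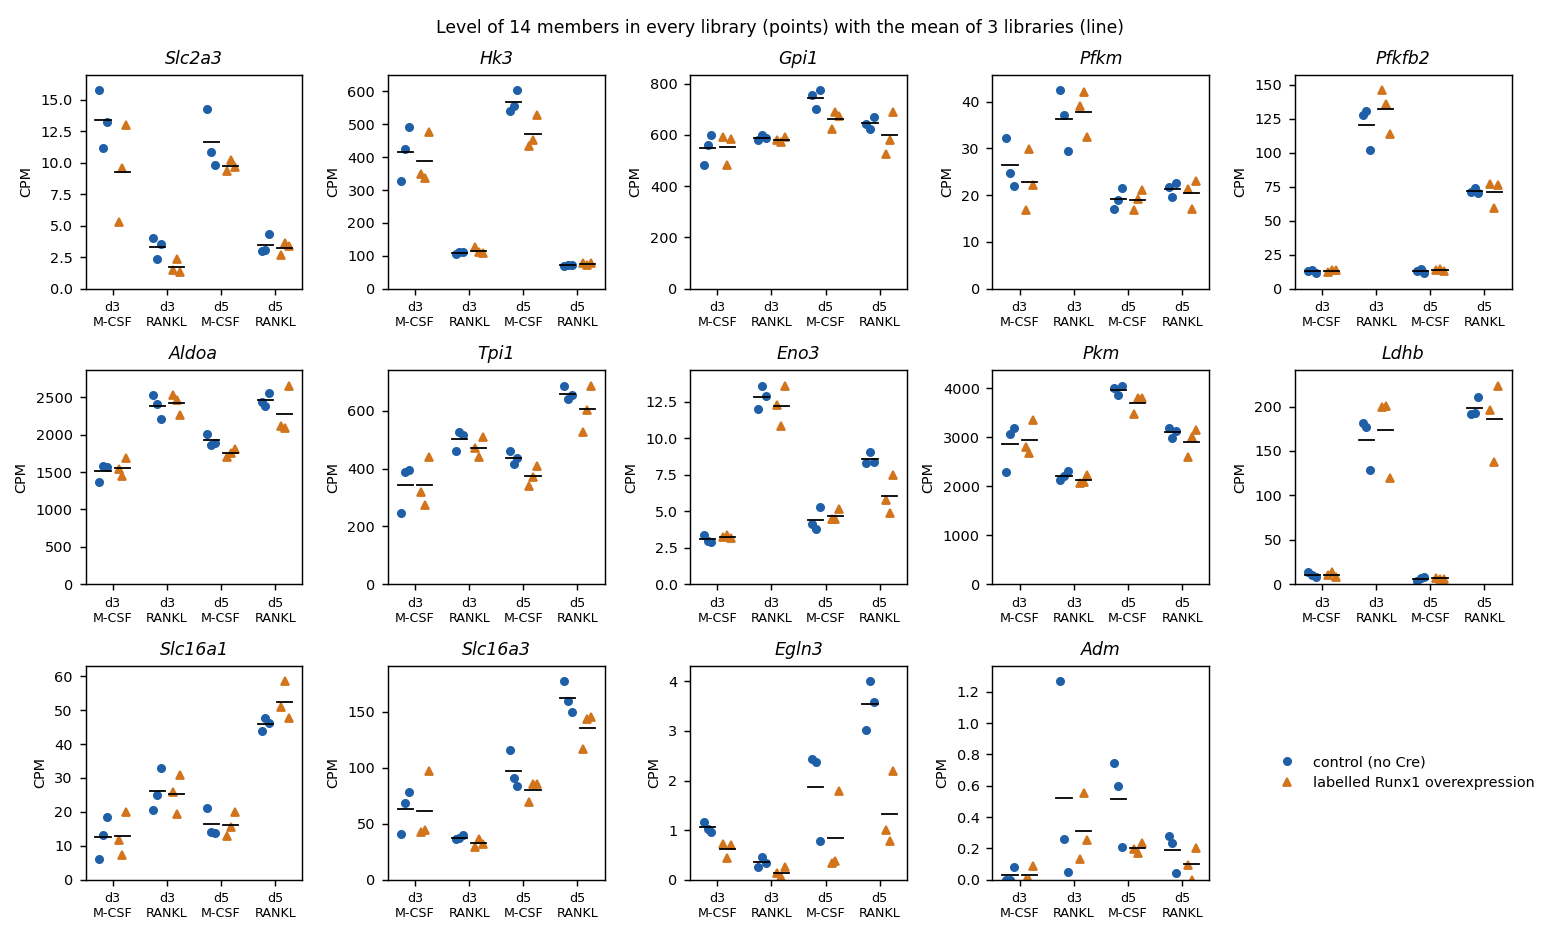
CPM of 14 of the genes in every library, 1 panel a gene with a linear axis from 0, by day and medium; circles are control and triangles Runx1-labelled libraries, and a short line is the mean of 3. Ldhb and Pfkfb2 separate the media on both days, and Slc16a3 with RANKL lies below M-CSF on day 3 and above it on day 5.

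**Figure D3:**
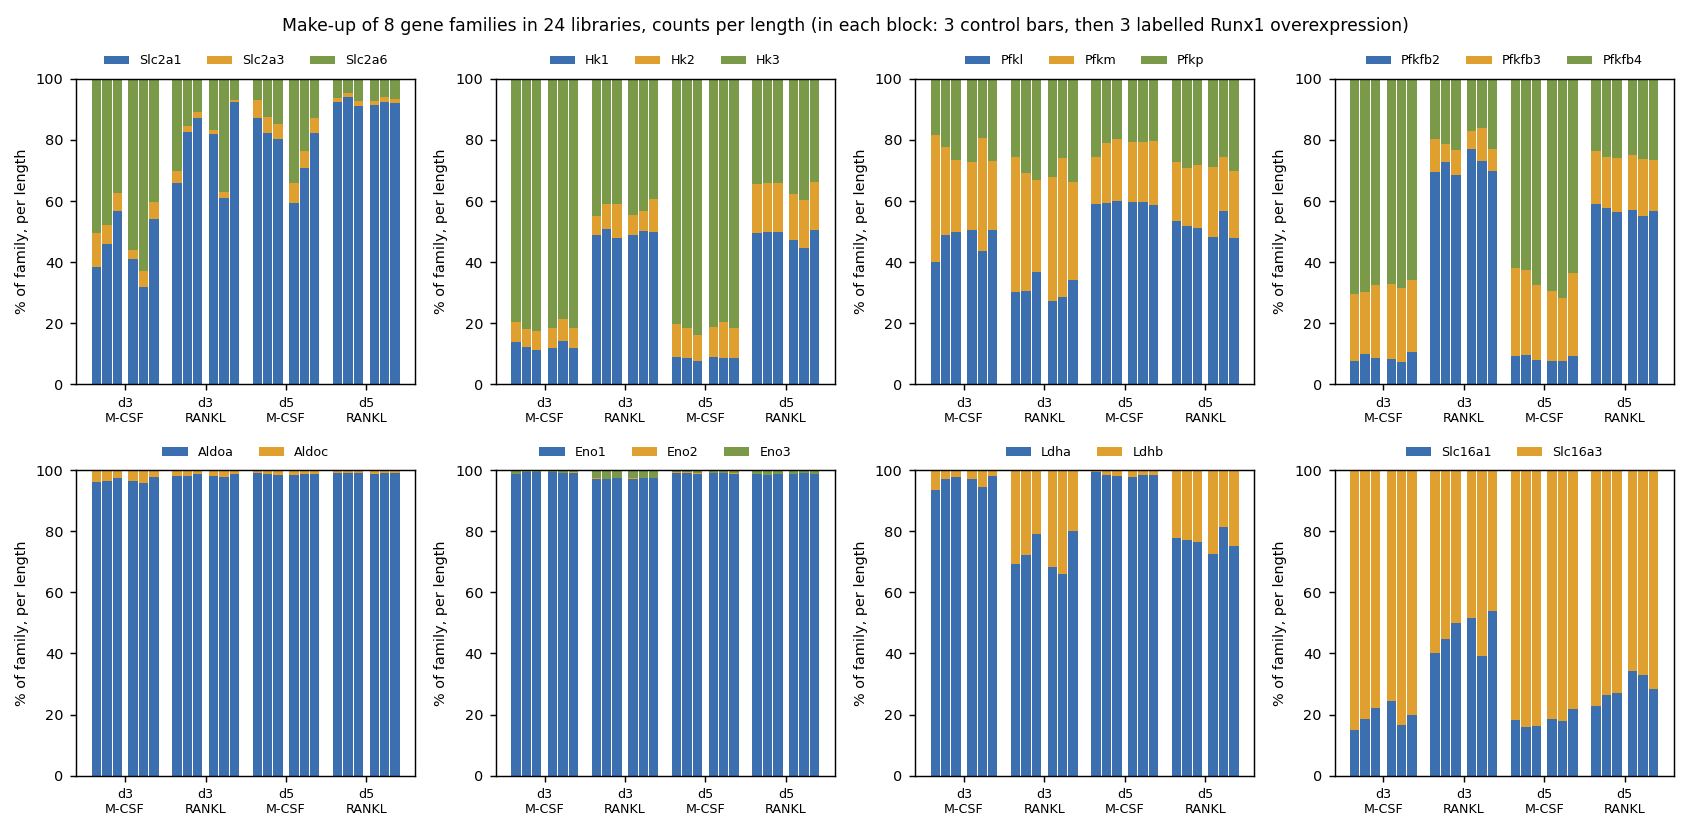
Make-up of 8 gene families in percent of counts per length, as 1 stacked bar for each of the 24 libraries; each block of a day and medium holds 3 control bars, then 3 Runx1-labelled bars. RANKL bars hold more Hk1, Pfkfb2, Ldhb and Slc16a1 and less Hk3, Pfkfb4 and Slc16a3 than every M-CSF bar of the same day.

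Hif1a and its hydroxylases Egln1 and Egln3, which mark it for degradation, were lower with RANKL on day 3 and passed in no comparison on day 5. On day 3, Egln3 stood at 1.17, 1.02 and 0.967 CPM in the control libraries with M-CSF alone and at 0.253, 0.465 and 0.335 CPM in those with RANKL. Egln3 in the Runx1-labelled libraries of day 3 stood at 0.724, 0.438 and 0.691 CPM without RANKL and at 0.129, 0.0503 and 0.254 CPM with it. Every RANKL library of day 3 was below the M-CSF libraries of its genotype, at very low levels. On day 5, Egln3 measured 2.44, 2.38 and 0.773 CPM in control libraries with M-CSF alone and 3.03, 3.999 and 3.58 CPM in those with RANKL. Egln3 in the Runx1-labelled libraries of day 5 measured 0.339, 0.384 and 1.796 CPM without RANKL and 1.01, 0.778 and 2.2 CPM with it. Day 5 controls were apart and the Runx1-labelled groups overlapped, M-CSF library 3 being high. Egln3 (chr12:54178981-54203860, minus strand) had log2 differences of −1.58 ± 0.60 and −2.02 ± 0.70 on day 3 and 0.92 ± 0.50 and 0.70 ± 0.54 on day 5 (adjusted p 0.0294, 0.0177, 0.138 and 0.287). Its day 3 calls were lost without any 1 library other than M-CSF library 3 and RANKL library 2 (−1.60 to −1.40) in controls and without RANKL library 1 (−1.93) or RANKL library 2 (−1.66) in Runx1-labelled cells. Hif1a fell from 109 ± 5.91 to 79.2 ± 5.63 CPM in day 3 controls, and its log2 differences were −0.47, −0.71, 0.05 and −0.20, the first 2 passing (adjusted p 3.84e-04 and 2.75e-06). Egln1 fell from 50.4 ± 9.31 to 33.2 ± 2.98 CPM, with log2 differences of −0.60, −0.63, −0.18 and −0.04, again the first 2 passing.

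Among the 7 hypoxia targets, Pdk1, which restrains pyruvate dehydrogenase, and Bnip3, a mitophagy receptor, were higher with RANKL in all 4 comparisons. Pdk1 went from 74.1 ± 24.6 to 198 ± 24.7 CPM in day 3 controls (log2 differences 1.42, 1.58, 0.85 and 1.05), and Bnip3 from 22.6 ± 1.22 to 35.5 ± 5.41 CPM (log2 0.65, 0.54, 0.56 and 0.44). Vegfa, the vascular growth factor, was higher on day 3 alone (log2 0.64, 0.70, 0.19 and 0.15), and its control call was lost without RANKL library 1 (0.44), M-CSF library 2 (0.58) or M-CSF library 3 (0.43). Ddit4, an inhibitor of mTORC1, was lower on day 3 (log2 −1.68, −1.65, −0.56 and −0.30), going from 5.65 ± 1.47 to 1.76 ± 0.286 CPM in controls. P4ha1, a subunit of collagen prolyl hydroxylase, was lower in 3 of the 4 comparisons (log2 −0.75, −0.80, −0.59 and −0.47), the day 5 Runx1-labelled value not passing. Its day 5 control call was lost without M-CSF library 1 (−0.56), RANKL library 2 (−0.57) or RANKL library 3 (−0.58). Ndrg1, a gene of growth arrest and stress, passed in none (log2 0.16, 0.44, −0.27 and −0.22).

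Adm, the vasodilator peptide adrenomedullin, was near the floor in every library. On day 3 the read counts of Adm were 0, 0 and 2 in control libraries with M-CSF alone and 30, 5 and 1 in those with RANKL, or 1.27, 0.258 and 0.0479 CPM. Runx1-labelled libraries of day 3 held 0, 0 and 2 Adm reads without and 3, 11 and 6 with RANKL. Control RANKL library 1 thus held most of the reads of its group. On day 5, Adm measured 0.748, 0.596 and 0.206 CPM in control libraries with M-CSF alone and 0.2796, 0.235 and 0.0454 CPM in those with RANKL. Adm in the Runx1-labelled libraries of day 5 measured 0.194, 0.171 and 0.236 CPM without RANKL and 0.0917, 0 and 0.2 CPM with it. The day 5 groups overlapped. As summed counts scaled to depth, Adm (chr7:110627661-110629820, plus strand) was 19.1 times higher with RANKL in day 3 controls (2 against 36 counts, exact 95% interval 4.91 to 163.0) and 11 times in Runx1-labelled cells (2 against 20, 2.66 to 96.7), intervals that cover counting error only. Both day 3 differences passed (adjusted p 0.00823 and 0.0347), with a fitted log2 value of 3.96 and 3.24 that depends on the prior count. The calls were lost without RANKL library 1 (2.16) in controls and without M-CSF library 1 (2.72), M-CSF library 2 (2.71) or RANKL library 2 (2.57) in Runx1-labelled cells, and without M-CSF library 3 the fitted values were 6.58 and 5.80.

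Summed over the 19 enzymes from hexokinase to lactate dehydrogenase, day 3 controls held 11390 ± 1754 CPM with M-CSF and 12700 ± 339 CPM with RANKL (SD, n = 3), and day 5 controls 14770 ± 330.3 and 15380 ± 359 CPM. The libraries of the media overlapped in both genotypes on both days. Over both genotypes the sum was 1031 CPM higher with RANKL on day 3 and 829 CPM higher on day 5. The day 3 difference was 1423 CPM with DESeq2's size factors and 1309 CPM without the Runx1-labelled libraries of number 3. The CPM of the 7 hypoxia targets went from 255 ± 34.6 to 376 ± 42.1 CPM on day 3 and from 362 ± 28.8 to 401 ± 6.08 CPM on day 5 in controls. Of these, Pdk1, singled out after its values were seen, went from 74.1 ± 24.6 to 198 ± 24.7 CPM on day 3 and from 103 ± 8.69 to 185 ± 3.19 CPM on day 5. The other 6 targets together stood at 181 ± 10.2 and 178 ± 18 CPM on day 3 and at 259.6 ± 20.2 and 216 ± 5.16 CPM on day 5. The sums over genes are given without a test. These sums are transcript levels and do not measure flux.

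Per kilobase of merged annotated exon, 3 enzymes led in all conditions. The order between genes depends on these lengths, which pool all annotated exons of a gene and were not checked against the transcripts present. In day 3 controls with M-CSF the levels were 582 ± 55.9 CPM per kb for Gapdh, 571 ± 97.3 for Pkm and 518 ± 40.1 for Aldoa, neighbours whose intervals of mean ± SD overlapped. With RANKL Aldoa led at 821 ± 55.8, followed by Gapdh at 610.5 ± 22.1 and Pkm at 443 ± 18.1, each step larger than the SDs. On day 5, Pkm led with M-CSF at 794 ± 18.4 and Aldoa with RANKL at 845 ± 31.3 CPM per kb. Adm and Eno2 were among the 3 lowest in all 8 groups, joined by Egln3 in 6 of them and by Slc2a3 in both day 5 RANKL groups. Ldhb moved from place 26 of 37 with M-CSF to place 9 with RANKL in day 3 controls.

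From day 3 to day 5, 12 of the 37 genes rose in controls with either medium, among them Slc2a1, Hk2, Pfkl and P4ha1. With M-CSF alone 12 of 37 rose and 5 fell in control cells, beside 12.2% and 11.5% of all genes, and 4 rose and 4 fell in Runx1-labelled cells, beside 7.17% and 7.08%. The control rises with M-CSF come to 32.4% of these genes. With RANKL 12 rose and 6 fell in control cells (all genes 14.1% and 12.7%), and 12 rose and 7 fell in Runx1-labelled cells (17.6% and 15.6%). The balance of rises and falls changed with the fit. With M-CSF, 4 rose and 4 fell in controls when only the groups compared were fitted, and 1 rose and 4 fell in Runx1-labelled cells in that fit and without a filter on low counts. With RANKL, 9 rose and 8 fell in controls with DESeq2's size factors, and 10 rose and 10 fell in Runx1-labelled cells without their libraries of number 3. The genes' median log2 changes were 0.35, 0.17, 0.14 and 0.10, beside 0.01, 0.02, 0.00 and −0.02 for all genes tested. Leaving out each library in turn kept 8 of 17, 4 of 8, 15 of 18 and 13 of 19 calls in every fit, and the first count fell from 17 to 9 without control day 3 M-CSF library 1, which had the lowest value of its group for 22 of 37 genes.

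With RANKL, the largest rises to day 5 were of Egln3 (log2 3.33 and 3.15 in control and Runx1-labelled cells) and Slc16a3 (2.11 and 2.06). Next were Slc2a1 (1.27 and 1.11) and P4ha1 (1.11 and 1.03). The Egln3 values start from few reads per library on day 3, so their size is imprecise. Pfkl, Egln1, Hif1a, Pgk1, Pkm and Pfkfb3 rose too in both genotypes, by 0.41 (Pgk1 in Runx1-labelled cells) to 0.86 (Pfkl in controls). Hk2 (0.59) and Ldha (0.56) rose in controls, and Slc2a3 (0.93) and Slc16a1 (1.04) in Runx1-labelled cells. Ndrg1 (−1.18 and −1.60), Aldoc (−1.01 and −1.06), Pfkm (−0.77 and −0.88), Pfkfb2 (−0.75 and −0.89), Hk3 (−0.61 and −0.61) and Eno3 (−0.58 and −1.01) fell in both, and Hk1 (−0.46) fell in Runx1-labelled cells. Calls in controls were lost for Ldha without any 1 library other than day 3 library 3 (0.47 to 0.58), for Hk2 without any 1 library other than day 3 library 3 (0.33 to 0.62, 0.33 without day 3 library 1), and for Pfkfb3 without any 1 library other than day 3 library 1 (0.39 to 0.61), while Pfkfb3 was 0.88 without day 3 library 1. In Runx1-labelled cells calls were lost for Pgk1 without any 1 library other than day 3 library 3 and day 5 library 1 (0.32 to 0.41), for Hk1 without day 5 library 2 (−0.34) and for Slc2a1 without day 3 library 2 (0.93). The same held for Pfkfb3 without any 1 library other than day 3 library 2 and day 5 library 2 (0.45 to 0.59), for Slc16a1 without day 3 library 1 (1.05), day 3 library 2 (0.87) or day 5 library 2 (0.96) and for Slc2a3 without any 1 library other than day 3 library 2 and day 5 library 1 (0.76 to 0.89).

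With M-CSF alone, Slc2a6 (log2 −1.71 and −1.46), Ddit4 (−2.08 and −1.83), Aldoc (−1.08 and −1.08) and Ndrg1 (−0.75 and −0.94) fell in both genotypes, and Ldhb (−0.85) fell in controls. Hk2 (1.13 and 0.93), P4ha1 (0.95 and 0.70), Pfkl (0.64 and 0.45) and Eno3 (0.53 and 0.53) rose in both. Controls alone passed for Adm, Slc2a1 (1.05), Pkm (0.48), Eno1 (0.47), Hk3 (0.45), Gpi1 (0.44), Pgk1 (0.42) and Aldoa (0.35), and the difference from Runx1-labelled cells was not tested. The fitted Adm value, 3.91, rests on 2 reads in the day 3 group. Control calls were lost for Aldoa without day 3 library 1 (0.30), for Eno1 without day 3 library 1 (0.30) or day 5 library 1 (0.46), for Pgk1 without day 3 library 1 (0.30), day 5 library 1 (0.39) or day 5 library 2 (0.43) and for Hk3 without day 3 library 1 (0.32). They were also lost for Ldhb without any 1 library other than day 3 library 3 and day 5 library 3 (−0.94 to −0.55, −0.55 without day 5 library 1), for Slc2a1 without day 3 library 1 (0.80), day 5 library 1 (0.95) or day 3 library 2 (1.02), for Ndrg1 without day 3 library 1 (−0.54) or day 5 library 1 (−0.60), for Eno3 without day 3 library 2 (0.50), day 3 library 3 (0.49) or day 5 library 3 (0.38) and for Adm without any 1 library other than day 3 library 3 and day 5 library 3 (3.44 to 3.81), with Adm at 6.54 without day 3 library 3. In Runx1-labelled cells they were lost for P4ha1 without any 1 library other than day 3 library 3 and day 5 library 1 (0.52 to 0.74), for Pfkl without any 1 library other than day 3 library 3 and day 5 library 1 (0.35 to 0.43), for Slc2a6 without day 5 library 3 (−1.24) and for Eno3 without any 1 library other than day 5 library 1 (0.46 to 0.58). Summed erythroid and megakaryocyte markers, chiefly Pf4, were at 192.0 to 416.3 CPM on day 3 and 568.5 to 1530 CPM on day 5 with M-CSF alone, and their part in these changes was not tested. Tpi1, Gapdh, Pgam1, Pfkp, Pfkfb4, Eno2, Vegfa, Bnip3 and Pdk1 passed in none of the 4 comparisons between days.

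The RANKL difference itself changed between day 3 and day 5 for 8 of the 37 genes in 1 or both genotypes, tested as the day 5 difference minus the day 3 difference. In the 37 genes 3 moved up and 4 down in controls, where 7.26% and 6.73% of all genes did, and 4 moved up and 3 down in Runx1-labelled cells, beside 8.09% and 7.13%. Slc16a3 moved by 1.49 ± 0.35 and 1.67 ± 0.35 on the log2 scale (adjusted p 0.00665 and 0.00251), from lower with RANKL to higher. Egln3 moved by 2.50 ± 0.79 and 2.72 ± 0.88 (adjusted p 0.0369 and 0.0414), Hif1a by 0.52 and 0.51 (adjusted p 0.0149 and 0.0149), and Egln1 by 0.59 in Runx1-labelled cells (adjusted p 0.0365). Eno3 (−1.11 and −1.54), Hk3 (−1.06 and −0.89) and Pfkfb2 (−0.77 and −0.95) moved down in both genotypes, and Adm (−5.41, a value set by few reads) in controls. The Slc16a3, Eno3, Hk3 and Pfkfb2 calls held whichever library was left out. In controls the Hif1a call was lost without day 3 RANKL library 2 (0.46) or day 5 M-CSF library 3 (0.40), Egln3 without any 1 library other than day 3 M-CSF library 3, day 5 M-CSF library 1 and day 5 M-CSF library 2 (2.11 to 2.72), and Adm without any 1 library other than day 3 M-CSF library 3, day 3 RANKL library 2, day 3 RANKL library 3, day 5 M-CSF library 2, day 5 M-CSF library 3, day 5 RANKL library 1 and day 5 RANKL library 2 (−5.07 to −3.65). In Runx1-labelled cells Hif1a was lost without day 3 RANKL library 1 (0.43) or day 5 M-CSF library 2 (0.44), Egln1 without any 1 library other than day 3 M-CSF library 2 and day 5 RANKL library 1 (0.47 to 0.60), and Egln3 without any 1 library other than day 3 M-CSF library 2, day 3 RANKL library 3, day 5 M-CSF library 3, day 5 RANKL library 1 and day 5 RANKL library 2 (2.10 to 2.63).

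**Figure D4:**
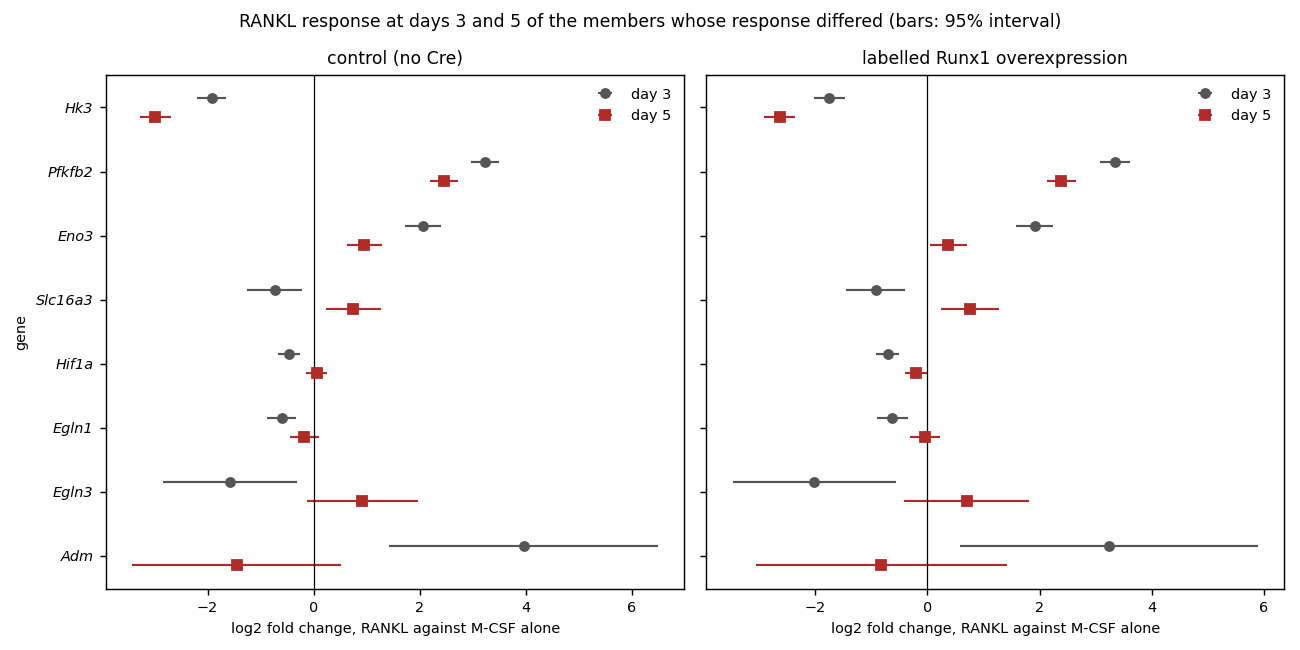
Fitted log2 fold change of RANKL against M-CSF alone on day 3 (grey circles) and day 5 (red squares) with 95% intervals, for the 8 genes whose difference changed between the days in 1 or both genotypes; the panels are control and Runx1-labelled cells. Slc16a3 lies below 0 on day 3 and above it on day 5, and for Eno3, Hk3 and Pfkfb2 the square lies left of the circle.

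The comparison of genotypes asked whether these genes differ in LysM-Cre;Rosa26-Runx1tg/+ cells. None of the 37 passed in edgeR's quasi-likelihood test in any of the 4 conditions, and 0% of all 15035 genes did. At an unadjusted p under 0.05 there were 0 genes on day 3 and 2 on day 5 with M-CSF alone, and 1 on day 3 and 4 on day 5 with RANKL, and DESeq2's Wald test called 0 in each. The genes named next were chosen after their values were seen. Egln3 and Eno2 passed unadjusted with M-CSF on day 5 (log2 Runx1-labelled minus control −1.15 and −0.99), and Slc2a3 with RANKL on day 3 (−0.96). With RANKL on day 5 they were Hif1a (−0.21), Bnip3 (−0.34), Eno3 (−0.50) and Egln3 (−1.37). A gene that does not pass is not thereby alike: the 95% interval lay within 2-fold either way for 32, 32, 33 and 33 of 37 genes in day 3 and day 5 M-CSF and day 3 and day 5 RANKL. Among the others were Egln3, Eno2 and Adm in every condition, all of low counts. For Ldhb the interval was −0.43 to 0.62 with RANKL on day 3 and −0.62 to 0.43 on day 5, and for Aldoa −0.18 to 0.22 and −0.31 to 0.09. Without the Runx1-labelled libraries of number 3, which stand apart in sex-linked transcripts, Egln3 was lower in Runx1-labelled cells with M-CSF on day 5 (log2 −2.35, adjusted p 0.0249), where the fit of all libraries gave −1.15 (adjusted p 0.781). Without those libraries 110 of all genes were called there, and 35, 6 and 39 in day 3 M-CSF, day 3 RANKL and day 5 RANKL, none of the 37 genes among these last. Egln3 levels with M-CSF on day 5 were 2.44, 2.38 and 0.773 CPM in control libraries and 0.339, 0.384 and 1.796 CPM in Runx1-labelled ones, so library 3 was the lowest of the controls and the highest of the Runx1-labelled libraries.

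The RANKL difference did not pass as different between genotypes for any of the 37 genes on day 3 or day 5, and 0% of all genes did (edgeR's quasi-likelihood test, unadjusted p under 0.05 for 0 and 1 genes). The 1 was Eno3 on day 5 (log2 −0.58, adjusted p 1). The 95% interval of this difference lay within 2-fold for 30 genes on day 3 and 28 on day 5.

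**Figure D5:**
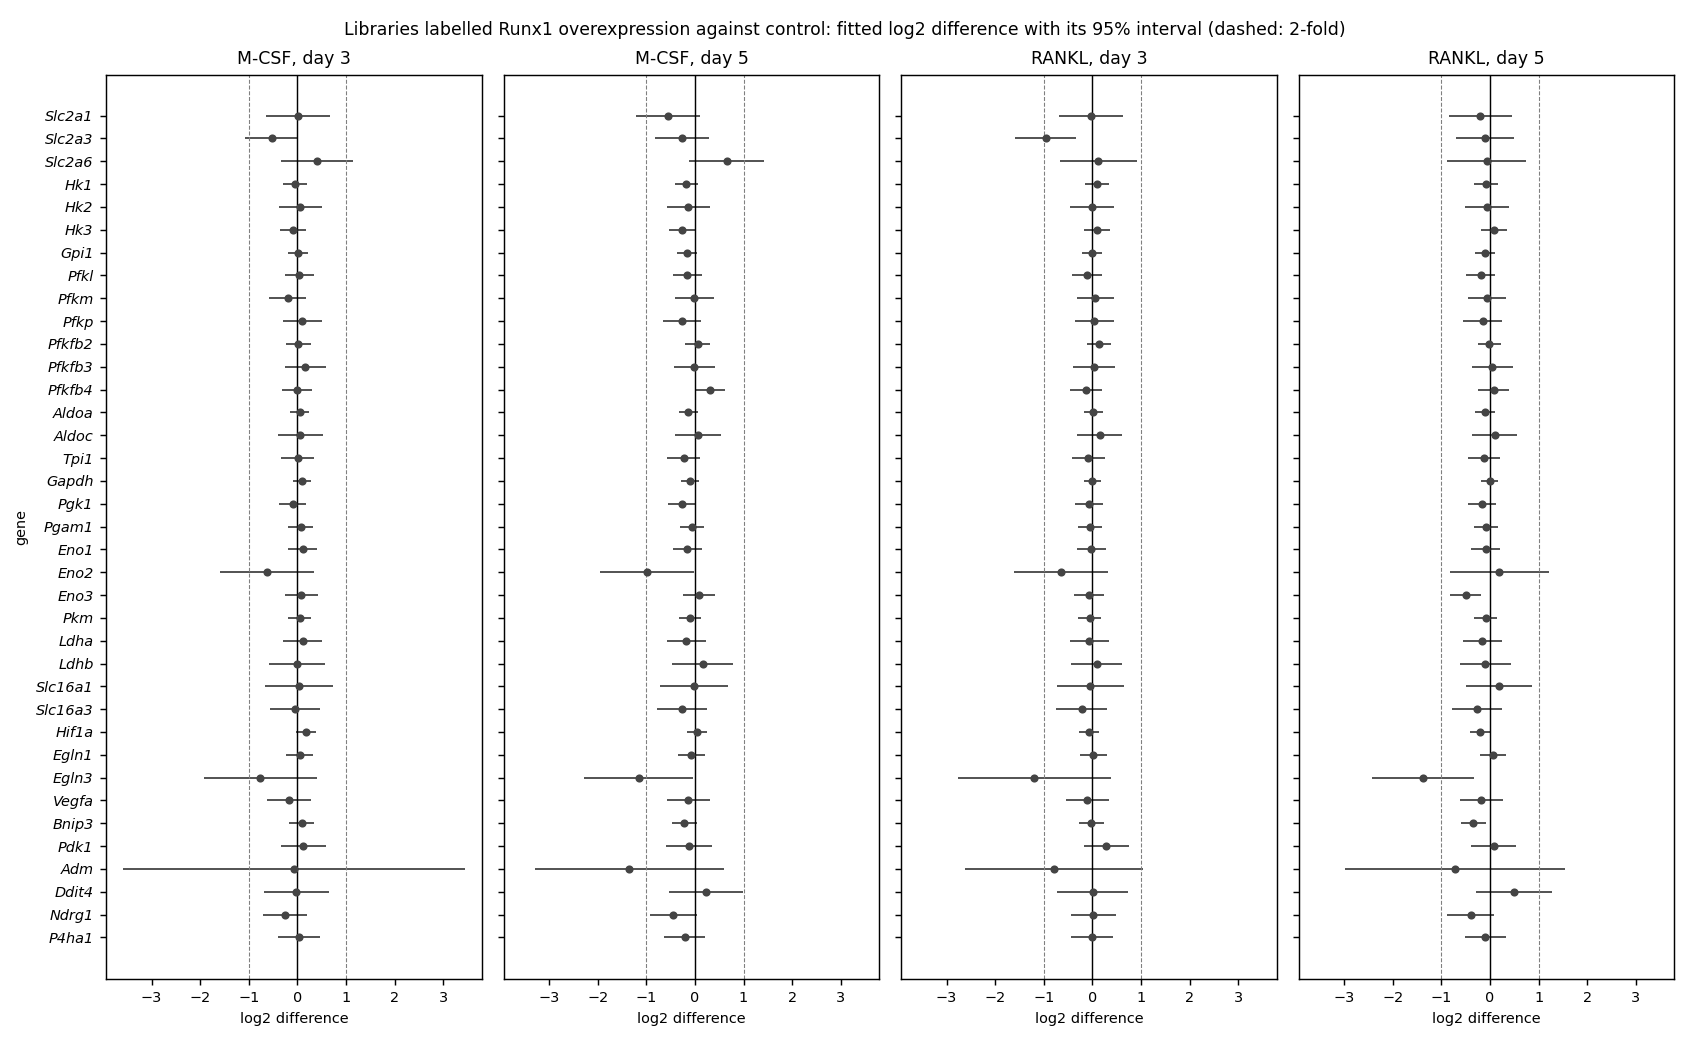
Fitted log2 difference between Runx1-labelled and control cells (points) with its 95% interval (bars) for the 37 genes in the 4 conditions; dashed lines mark a 2-fold difference. No gene passed an adjusted p of 0.05, and the widest intervals belong to Adm, Egln3 and Eno2.

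Other genes of the pathway gave the surroundings. Of 30 other glycolysis genes 22 were tested, and 13 were higher and 2 lower with RANKL in day 3 controls, 12 and 2 in day 3 Runx1-labelled cells, 10 and 2 in day 5 controls and 10 and 3 in day 5 Runx1-labelled cells. That is 59.1, 54.5, 45.5 and 45.5% higher, beside 29.5, 29.1, 26.4 and 27.5% of all genes. Lower were 9.09, 9.09, 9.09 and 13.6%, beside 29.7, 30.1, 23.1 and 24.9% of all genes. The shares of this list and of the next ones were not tested against those of all genes. The 3 with the smallest p were Mpc2, a subunit of the mitochondrial pyruvate carrier (log2 1.97, 2.02, 1.17 and 1.37), Pgm1, a phosphoglucomutase (0.99, 0.88, 0.52 and 0.63), and Galm, the galactose mutarotase (1.89, 1.72, 1.32 and 1.27). Of 9 pentose phosphate genes 8 were tested, with 1 higher and 3 lower (12.5% and 37.5%), 1 and 4, 0 and 2, and 0 and 2. In this branch the shares called higher were below those of all genes in all 4 comparisons. Its shares called lower were above those of all genes on day 3 and close to them (23.1 and 24.9%) on day 5. G6pdx, the enzyme that opens that branch, was lower (log2 −1.90, −2.05, −1.17 and −1.28), as was Pgd, which follows later (−0.84, −0.85, −0.47 and −0.50), and Pgls, between them, was higher on day 3 (0.61, 0.65, 0.20 and 0.20). Of 50 other hypoxia genes 45 were tested, with 17 higher and 13 lower, 17 and 14, 18 and 10, and 17 and 12. That is 37.8, 37.8, 40.0 and 37.8% higher, above the shares of all genes. Lower were 28.9, 31.1, 22.2 and 26.7%, close to the shares of all genes. Bhlhe40, a transcriptional repressor (log2 5.50, 5.72, 4.55 and 5.05), and Gys1, a glycogen synthase (2.31, 2.30, 1.35 and 1.30), were higher, and Slc2a9, a urate transporter (−2.86, −2.54, −2.34 and −2.44), was lower in all 4.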

How the data were processed

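The authors deposited raw read counts per gene, per the file headers, for 24 libraries, with a gene length (of unit other) that equalled the merged exon length in GENCODE M21 for 98.01% of the genes found there, Pgam1 being the 1 exception among the 37 genes. STAR, DESeq2 and GRCm39 are named in the submitters' processing notes, with no version given in the sources used here; 98.33% of gene positions equal those of GENCODE M21 on GRCm38, and positions are printed as deposited. Every value column was matched to a sample by its name.

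Counts were filtered with filterByExpr, which left 15035 genes (27.6%), scaled by TMM and fitted in edgeR 4.0.16 (limma 3.58.1, R 4.3.3) by robust quasi-likelihood with 1 coefficient for each of 8 groups and no covariate. Adjusted p-values are Benjamini-Hochberg over all genes tested. CPM uses TMM-scaled library sizes, and ± is SE for fits and SD for levels. Levels and shares per kilobase divide by the merged length of all annotated exons, which can differ from that of the transcripts present. The 1 read limit, 0.0286 to 0.0542 CPM, sets the precision of low genes such as Adm. Shares were compared by exact permutation tests. Sums over genes are given without their planned test because the genes were chosen with results known. The families compared by share come from the same genes, so their p-values carry the same limit. Software was python 3.11.15, numpy 2.4.6, pandas 2.3.3 and, for figures, matplotlib 3.10.9. Alternatives were DESeq2 1.42.0, its size factors, no filter, only the groups compared, a replicate block and leaving out libraries. The fit was tested on simulated data. Copies of these genes, searched only as the gene symbol with -ps or -rs and as Eno1b, held at most 0.397% of a gene's counts. Pseudogenes under other names were not searched.

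The 37 genes, the marker lists and the other pathway lists were chosen with earlier results of these data known. Every gene is named. Values of every library are printed for the gene with the largest RANKL difference of each role, for genes called between genotypes, and for genes whose call changed direction between days. From each other pathway list the 3 genes with the smallest p are named. Promoters were those with most hypoxia cores among the genes with all values printed, 1 per class.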

Additional observations from a re-analysis of the deposited data

Results flagged for a closer look

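The following genes are listed because a test of the RANKL difference on day 5 minus that on day 3 passed (edgeR's quasi-likelihood test), all on the log2 scale. In control cells they were Egln3 (2.504), Slc16a3 (1.486), Hif1a (0.5201), Pfkfb2 (−0.7727), Hk3 (−1.063), Eno3 (−1.107) and Adm (−5.409). Runx1-labelled cells gave Egln3 (2.716), Slc16a3 (1.673), Egln1 (0.5857), Hif1a (0.5147), Hk3 (−0.8896), Pfkfb2 (−0.9539) and Eno3 (−1.542). No outlier test was run on groups of 3 libraries.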

How the results depend on the processing

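Over all 38 rows there were 175 calls, which include calls of the second Aldoa row that is left out of the counts of 37 genes. Of these 175 calls, 170 were kept with DESeq2's size factors, 155 without a filter on low counts and 171 of 173 by DESeq2's Wald test. When only the groups compared were fitted, 145 of 169 were kept, and 75 of 84 without the Runx1-labelled libraries of number 3. Over all fits that left out 1 library, 961 of 1134 were kept, and 0 reversed in any setting. The counts per comparison that follow are of the 37 genes. From day 3 to day 5 with M-CSF, 17 calls in controls became 8 with only the groups compared and 9 to 21 with a library left out, and 8 in Runx1-labelled cells became 5 without the filter, 5 with only the groups compared and 4 to 11 with a library left out. The 7 calls for day 5 minus day 3 in Runx1-labelled cells ranged from 4 to 8 with a library left out. Between genotypes with M-CSF on day 5, 0 calls became 1 without the number 3 libraries, where 110 of all genes were called. The Hk2 share on day 5 was 0.688 points (adjusted p 0.277) without length, and the Pfkp share on day 3 was 6.60 points (adjusted p 0.0711) without those libraries. Leaving out a library gave 5.49 to 7.93 points for Pfkp and 1.16 to 2.44 for Hk2 on day 3, and −0.339 to −0.245 for Eno1 on day 5. The enzyme sum difference on day 3 was 1423 CPM with DESeq2's size factors, 1309 CPM without number 3 and 528 to 1387 CPM with a library left out, and on day 5 428.8 to 1223 CPM. The cause of these shifts was not tested. Deviations from the group means of libraries sharing a number correlated at −0.066 to 0.324 in controls and −0.011 to 0.369 in Runx1-labelled cells, above 0.1 in 15 of 36 pairs. The medians were 0.047 and 0.157, beside −0.018 and −0.081 for libraries of different numbers. As a hint that numbers pair the samples, 23 of 24 libraries correlated best with one of their own number. In Runx1-labelled cells the 4 libraries of number 3 also shared their sex-linked transcripts across both media and both days. Libraries of a number may thus not be independent of each other. No label states such a pairing, and the main fit and the permutation tests did not use it. Their p-values treat libraries of a number as independent. With the number as a replicate block, 174 of 175 calls of all 38 rows were kept and 15 added. Counts of the 37 genes alone were then 29, 29, 21 and 22 for RANKL and 17 and 9 for days with M-CSF. They were 24 and 21 for days with RANKL, 0 between genotypes, and 7 and 7 for day 5 minus day 3. The enzyme sum difference on day 5 stays at 829 CPM by arithmetic under such pairing, so it is no check. Low counts limit the precision of Adm, Egln3 and Eno2.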
